A study of Mus musculus with 2 samples.

Results

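The genes described here are 8 that encode proteins of the red cell membrane, Slc4a1, Rhag, Rhd, Kel, Ank1, Epb42, Epb41 and Sptb, of 21755 protein-coding genes in all. The set was given as a list of gene names. Their regions were the listed ATAC-seq peaks that overlapped a gene or lay within 50 kb of it, 117 peaks in replicate 1 and 110 in replicate 2. Merging left 68 regions found in both replicates (shared regions), of 69539 in the series. ATAC-seq marks open chromatin, DNA that a transposase can reach and tag. The series held 1 group, primary megakaryocytes of adult male C57BL/6J mice aged 5 to 6 weeks, with 50000 cells in each of 2 biological replicates and no treatment, other genotype or second cell type. Both replicates carry 1 donor record, so the spread between them may not be that between animals. How the cells were isolated is not given in the sources used here.

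The membrane of the red cell is held by a spectrin and actin skeleton beneath the lipid bilayer. Ankyrin and protein 4.2 tie that skeleton to band 3, the anion exchanger, while protein 4.1 ties it at the actin junctions, and the Rh and Kell proteins sit in complexes around these anchors and carry blood group antigens. Loss of several of these proteins is known to cause hereditary spherocytosis or elliptocytosis. Megakaryocytes, which shed platelets, share a progenitor with red cells and with it the transcription factor GATA1, which binds GATA motifs at many genes of both lineages.

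Regions at 6 of the 8 genes reached a promoter, meaning a shared region no further than 500 bp from an annotated transcript start, against 59.8% of all protein-coding genes. The promoter regions were weak, with a median fold enrichment over local background of 6.03 over these 6 genes, compared with 11.5 over all genes that had one. Only Epb41 lay above that median. Slc4a1 had no listed region at a start in either replicate, and Rhag had one in replicate 2 alone. Open regions were nonetheless found away from the starts. A distal shared region is one with no base within 1 kb of any start. Such a region lay inside the gene at 5 of 8 genes, against 36.8% of all genes. This comparison does not account for gene length. Sptb, Ank1 and Epb41, of 130 to 176 kb, held 4, 3 and 3 of these 12 regions. Values below are fold enrichments as the authors' peak caller gave them, means ± SD are over n = 2 replicates, and no comparison between groups was possible.

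The sequences before the starts of these genes are shown because the promoter regions of these genes were weak or missing and because GATA motifs are known at erythroid promoters. A GATA motif (AGATAA or TGATAA, or AGATAG or TGATAG, on either strand) was present in the 150 bases before the principal start (that of the principal transcript nearest the 5′ end) at 5 of 8 genes, against 14.1% of all protein-coding genes. Epb41, Ank1 and Sptb had none there. At Epb41 and Ank1 this start had no shared region within 500 bp, and the Ank1 window overlapped an annotated exon. At Epb42 and Kel the GATA motif also formed a pair with an E-box part, which made 2 of 8 genes against 0.331%. The pair is CTG followed 7 or 8 bases later by AGATAA or TGATAA on either strand. Below, each sequence runs 5′ to 3′ on the strand of its gene in the mm10 build and ends at the base before the start, and capitals mark the GATA motif. They are chr11:102365281-102365430 (minus strand), chr17:40810976-40811125 (plus), chr4:134864386-134864535 (plus), chr6:41704340-41704489 (minus), chr2:121037073-121037222 (minus) and, with no GATA motif, chr12:76710548-76710697 (minus).
Slc4a1: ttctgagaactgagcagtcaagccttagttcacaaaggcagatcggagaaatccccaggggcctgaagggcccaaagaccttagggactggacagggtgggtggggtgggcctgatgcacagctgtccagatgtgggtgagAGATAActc
Rhag: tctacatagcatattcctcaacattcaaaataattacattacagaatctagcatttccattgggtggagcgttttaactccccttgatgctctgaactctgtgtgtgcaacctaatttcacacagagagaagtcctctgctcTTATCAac
Rhd: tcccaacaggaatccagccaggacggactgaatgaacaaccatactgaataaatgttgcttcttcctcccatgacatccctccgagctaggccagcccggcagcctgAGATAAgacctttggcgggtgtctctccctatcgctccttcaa
Kel: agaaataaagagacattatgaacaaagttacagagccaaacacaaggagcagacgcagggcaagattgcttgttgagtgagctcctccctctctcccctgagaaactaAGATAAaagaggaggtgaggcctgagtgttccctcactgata
Epb42: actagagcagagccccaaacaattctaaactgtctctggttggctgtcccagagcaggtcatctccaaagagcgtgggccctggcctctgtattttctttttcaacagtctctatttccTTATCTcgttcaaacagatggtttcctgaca
Sptb: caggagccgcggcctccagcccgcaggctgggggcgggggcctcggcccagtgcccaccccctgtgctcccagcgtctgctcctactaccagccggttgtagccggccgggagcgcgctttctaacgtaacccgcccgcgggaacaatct
Between the motif and the start lay 3 bases at Slc4a1, 2 at Rhag, 37 at Rhd, 36 at Kel and 25 at Epb42. The Slc4a1, Rhag and Kel sequences hold 1 CpG each, that of Epb42 holds 2 and that of Rhd 5, and the Sptb sequence holds 15, beside a median of 6 over all genes. A match describes the letters in this window only. At Slc4a1, Rhag and Rhd no shared region lay within 500 bp of the principal start. At Epb42 and Kel a shared region covered the motif. The shares over all genes, 14.1% and 0.331%, were not matched for CpG content. The differences from them were not tested, so no GATA excess before these starts is concluded.

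The 5′ ends differed in base composition over 500 bp to each side. The observed over expected CpG ratio was 0.0363 at Rhag, 0.0374 at Kel, 0.156 at Epb42, 0.193 at Slc4a1 and 0.272 at Rhd, all below the median of 0.558 over protein-coding genes. It was 0.613 at Epb41, 0.654 at Sptb and 0.992 at Ank1. A CpG-rich 5′ end was not always an open one: Ank1, the richest of the 8, had none, and Kel, among the poorest, had one. Counting only the 5′ end of each gene, 4 of 8 genes (Sptb, Epb41, Epb42 and Kel) had a shared region within 500 bp, against 54.4% of all genes. The same 4 had one at the start of a principal transcript, against 56.4%.

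**Figure D1:**
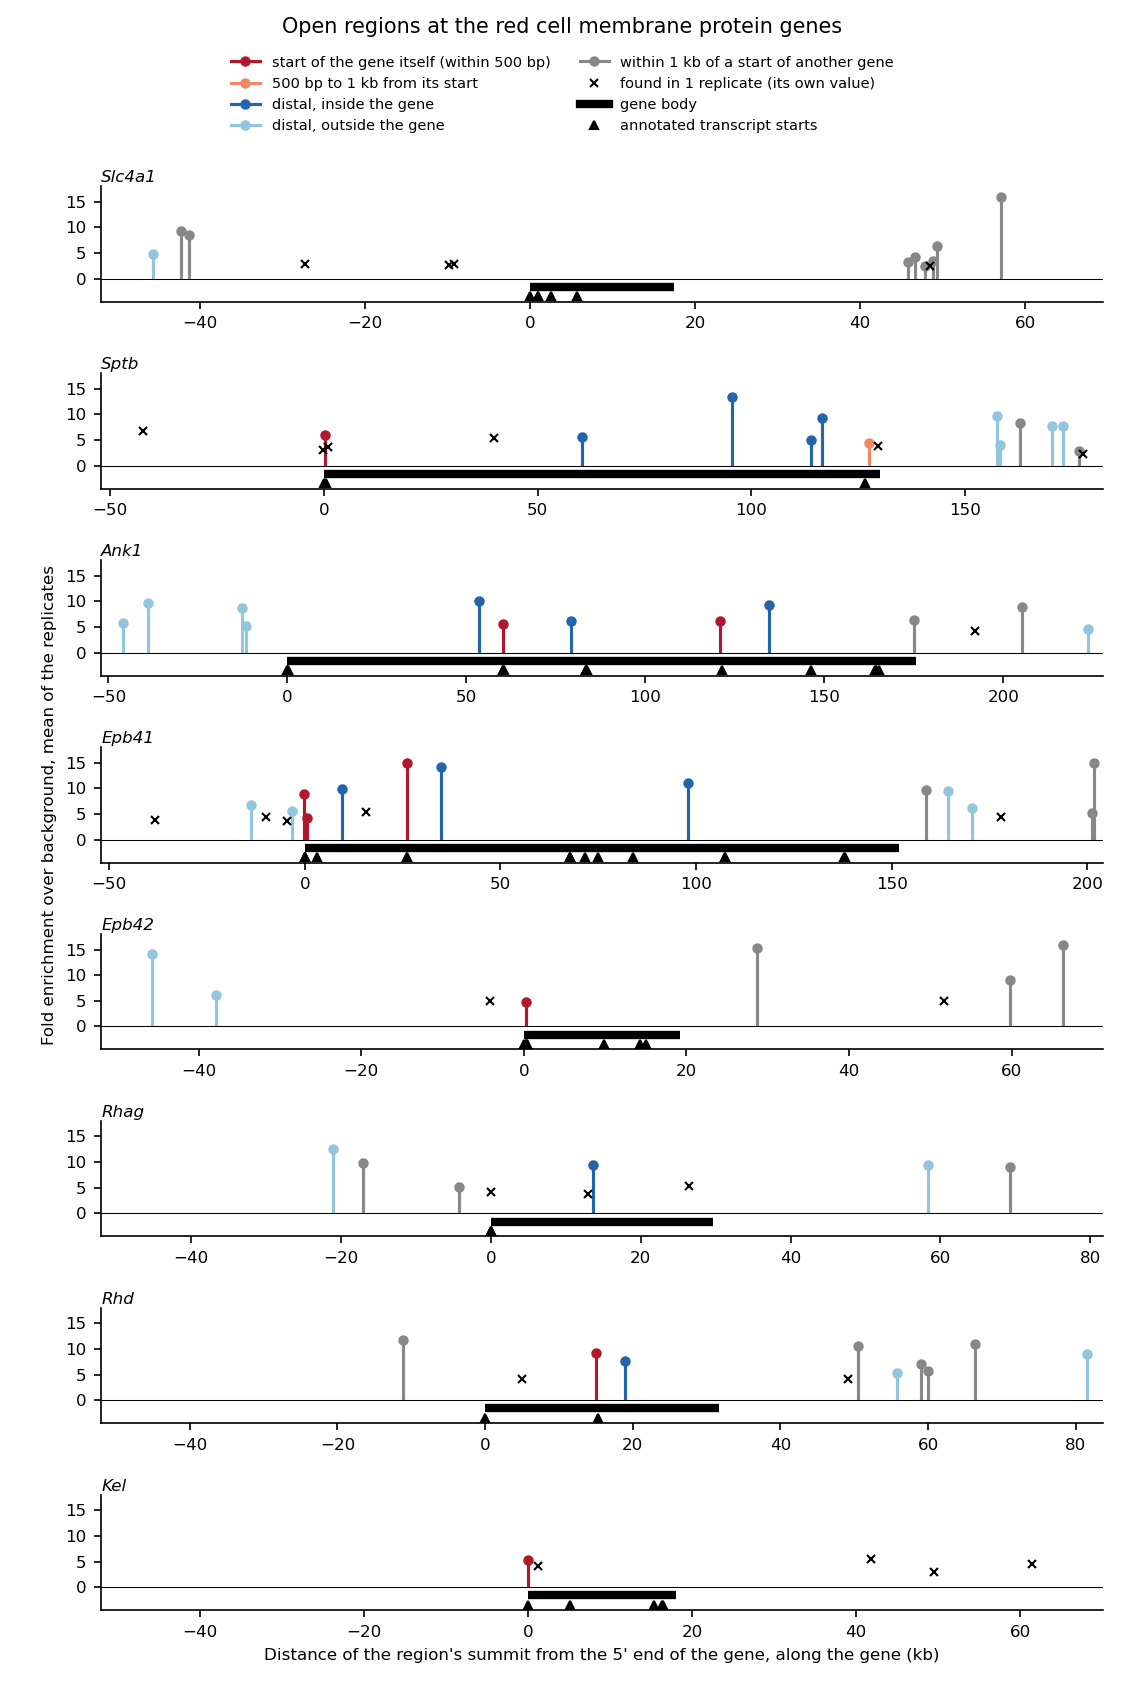
Shared open regions at the 8 red cell membrane protein genes, by distance of the summit from the 5′ end along the gene (kb, x axis) and mean fold enrichment of the 2 replicates (y axis), coloured by position. Black bars are gene bodies, triangles annotated starts, and crosses regions found in 1 replicate, at that replicate's value. The body of Slc4a1 holds no region of either replicate, while Sptb, Ank1 and Epb41 hold several regions along their length.

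Slc4a1 encodes band 3, the chloride and bicarbonate exchanger and the main integral protein of the red cell membrane. Its gene (chromosome 11, 102348824 to 102366203, minus strand) held no region of either replicate at any of its 5 starts or elsewhere in its 17.4 kb. The other 7 of the 8 genes had a shared region inside the gene, as had 68.4% of all genes. Its window still had 9 shared regions, but 8 of them lay at the starts of its neighbours Ubtf, an RNA polymerase I factor, and Slc25a39, a mitochondrial carrier. The strongest of these, at Ubtf, had 16.2 in replicate 1 and 15.9 in replicate 2. The single distal region, at -45.7 kb from the 5′ end of Slc4a1, where a minus means before the gene (chr11:102411775-102412014), had 5.03 and 4.71. In the list of replicated peaks that the authors called on the pooled samples, a region at the principal start of Slc4a1 had 3.49 and a second, at the internal start of Slc4a1-203, had 4.15. A weak opening at this start was thus listed after pooling and in neither replicate alone. Itga2b, which encodes the megakaryocyte fibrinogen receptor subunit and lies 87.1 kb from Slc4a1, had 13.9 and 13.0 at its promoter.

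Rhag encodes the Rh-associated glycoprotein, an ammonium transport protein around which the Rh complex is built. At its start (chromosome 17, position 40811126), replicate 2 listed a region of 4.11 and replicate 1 listed none; the pooled replicated list gave 3.65. The stronger regions of Rhag lay away from it. An intronic region 13.6 kb into the gene (chr17:40824526-40824883) had 7.70 in replicate 1 and 11.0 in replicate 2. A region at -21.0 kb, in an intron of Crisp2, had 13.0 and 12.1, and one 58.3 kb after the start had 8.27 and 10.7. All 3 exceeded the value listed at the start.

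Rhd, the mouse gene of the Rh blood group polypeptide, had no shared region at its 5′ end, although the pooled replicated list gave 4.48 there. Its promoter region lay 15.0 kb into the gene (chr4:134879428-134879893), at the start of the non-coding transcript Rhd-202, with 8.35 in replicate 1 and 10.2 in replicate 2 (mean 9.26 ± 1.29). An intronic region 18.9 kb from the 5′ end had 7.39 and 7.82. The other distal regions lay beyond the gene, with 8.42 and 9.64 at 81.6 kb and 5.30 and 5.16 at 55.8 kb. Of the 9 regions in the Rhd window, 5 lay at starts of other genes.

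Kel encodes the Kell glycoprotein, a membrane metallopeptidase of the endothelin-converting family. It had 1 shared region in its whole window of 118 kb, at the start (chr6:41704228-41704451), with 5.23 in replicate 1 and 5.49 in replicate 2 (mean 5.36 ± 0.181). This region covered the GATA motif shown above. Replicate 2 alone listed 4 more regions in the window, of 3.02 to 5.49, one of them 1.16 kb into the gene. With 0.847 shared regions per 100 kb, Kel lay above 17.8% of protein-coding genes, and the median over all genes was 4.93.

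Ank1 encodes ankyrin-R, the adaptor between spectrin and band 3, and has 16 annotated start positions along 176 kb. None of the 3 starts at its CpG-rich 5′ end had a region in either replicate, and the nearest shared region was 11506 bp or more away. The principal start, 83.4 kb further on, had none either. Regions lay instead at 2 internal groups of starts: 6.22 in replicate 1 and 4.94 in replicate 2 at Ank1-205, Ank1-206 and Ank1-213 (60.2 kb), and 5.33 and 6.86 beside Ank1-214 (120.8 kb). Both were below 8.66, the lower quartile of the strongest promoter region per gene over all genes that had one. The 2 replicates differed in opposite directions at these 2 places.

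Distal regions of Ank1 included stronger ones. The strongest (chr8:23027960-23028897, 53.6 kb from the 5′ end) had 8.98 in replicate 1 and 11.1 in replicate 2, and one at 134.6 kb had 7.997 and 10.4. A region in the neighbouring gene Kat6a, at -39.0 kb from the 5′ end of Ank1, had 8.29 and 11.0. The remaining intronic region, 79.3 kb from the 5′ end and 3904 bp before the principal start, had 6.52 and 5.76. It is shown because it held 3 GATA motifs, 1 of them in the pair with an E-box part, the most of any distal region of the 8 genes. The 201 bases around its summit (chr8:23054086-23054286, plus strand, mm10) read as follows, with GATA motifs in capitals.
Ank1 intron: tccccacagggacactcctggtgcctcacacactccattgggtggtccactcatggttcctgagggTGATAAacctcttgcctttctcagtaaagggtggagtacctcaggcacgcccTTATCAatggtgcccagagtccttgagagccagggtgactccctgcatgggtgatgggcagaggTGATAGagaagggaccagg

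Epb42 encodes protein 4.2, a transglutaminase relative without enzyme activity that binds band 3. Its 5′ end was covered by a region (chr2:121036693-121037236) of 5.16 in replicate 1 and 4.39 in replicate 2 (mean 4.77 ± 0.543), the lowest promoter value of the 6 genes. Of all genes with a promoter region, 3.65% had a lower one. No other shared region lay in the gene. A region at -45.7 kb, in an intron of the transglutaminase gene Tgm5, had 14.5 in replicate 1 and 13.7 in replicate 2, and a second in an exon of Tgm5 had 5.63 and 6.58. In both replicates the Epb42 promoter was the weaker of the 3.

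Epb41 encodes protein 4.1R, which fastens spectrin to actin, is made in many tissues and is known for alternative first exons. Its starts were unequal. The strongest region of the 8 genes' own starts lay 26.1 kb into the gene, at Epb41-203, Epb41-208 and Epb41-213 (chr4:132048861-132049569), with 14.6 in replicate 1 and 15.2 in replicate 2 (mean 14.9 ± 0.363). This exceeded the promoter value of 79.9% of open genes. A start of another annotated gene, Gm13063, also lay within 1 kb of this region. The 5′ end had 8.92 and 8.68 at its first region and 4.03 and 4.22 at a second, which also covered starts of Gm10300, a predicted gene, so these cannot be assigned to one gene. The other principal starts, 3.22 kb and 67.9 kb from the 5′ end, had no shared region within 500 bp.

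The introns of Epb41 held 3 distal regions, all with means between the quartiles (8.66 to 14.3) of the strongest promoter region per gene. The region 34.9 kb from the 5′ end (chr4:132039702-132040775) had 13.9 in replicate 1 and 14.5 in replicate 2 and exceeded 95.0% of all distal shared regions. Those at 97.9 kb and 9.51 kb had 10.4 and 11.8, and 10.5 and 9.33. The first is shown because it was the strongest distal region of the 8 genes by its mean (14.2 ± 0.408, beside 14.1 ± 0.571 at the region in Tgm5, within their spread) and held a GATA motif. Its 201 bases (chr4:132040348-132040548, minus strand, mm10), with the GATA motif in capitals, also hold CAG after the motif, which completes the pair with an E-box part.
Epb41 intron: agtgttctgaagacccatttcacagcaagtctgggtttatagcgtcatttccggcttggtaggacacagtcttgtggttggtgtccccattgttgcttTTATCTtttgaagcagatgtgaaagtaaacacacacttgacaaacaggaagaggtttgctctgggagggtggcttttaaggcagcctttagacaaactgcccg

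Sptb encodes the beta spectrin of red cells, the skeleton's main filament together with alpha spectrin. The region at its start (chr12:76709741-76710505) had 6.46 in replicate 1 and 5.46 in replicate 2 (mean 5.96 ± 0.708). Replicate 2 listed 2 further regions beside it, of 3.67 and 3.01, that replicate 1 did not. An intronic region 95.5 kb from the 5′ end (chr12:76614837-76615616) had 12.0 and 14.6 (mean 13.3 ± 1.86) and exceeded 92.7% of all distal shared regions. A second at 116.6 kb had 8.85 and 9.58, and one after the gene, in Plekhg3, had 9.03 and 10.3. Sptb had 4 distal regions inside the gene, more than 90.5% of protein-coding genes, a rank that does not account for its length of 130 kb. The summit of the strongest, shown for contrast (chr12:76614931-76615131, minus strand, mm10), held no GATA motif.
Sptb intron: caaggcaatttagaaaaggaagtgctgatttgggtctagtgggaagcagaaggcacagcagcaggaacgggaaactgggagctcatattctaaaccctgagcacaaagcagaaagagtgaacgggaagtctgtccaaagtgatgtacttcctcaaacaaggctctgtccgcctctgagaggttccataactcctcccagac

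**Figure D2:**
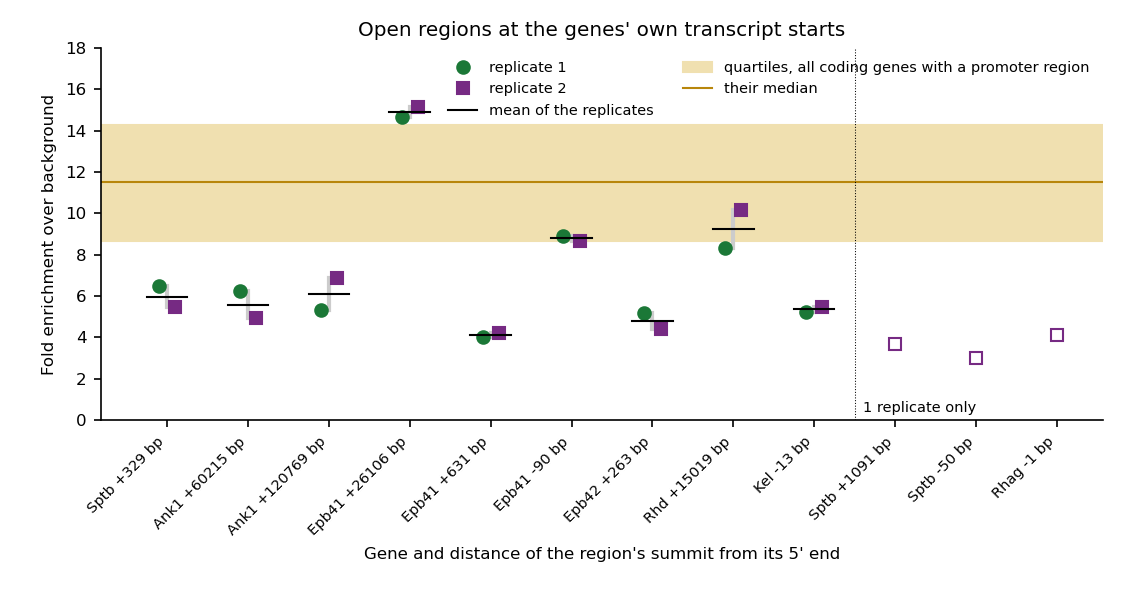
Fold enrichment (y axis) in replicate 1 (circles) and replicate 2 (squares) of each region within 500 bp of a start of the 8 genes, named by gene and by distance of the summit from the 5′ end. Open symbols are regions listed in 1 replicate, and the band spans the quartiles (8.66 to 14.3) of the strongest promoter region of all protein-coding genes that had one. The 2 values at Epb41 26.1 kb into the gene, 14.6 and 15.2, are the only ones above the band.

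By position, 9 of the 68 shared regions lay within 500 bp of a start of the gene itself and 1 within 1 kb, 26 lay within 1 kb of a start of another gene, and 32 were distal, 12 inside the gene and 20 outside. Median fold enrichment was 5.96 at own starts, 8.71 at starts of other genes, 9.28 in distal regions inside the genes and 7.27 in those outside. The distal regions of the 8 genes had a median of 8.23, beside 7.12 over all distal shared regions. All regions within 1 kb of a start had 7.69 at the 8 genes and 8.92 over the series. At the 8 genes the distal regions thus had the higher median, and over the series the regions near a start did. This describes 68 regions, and the difference was not tested. Distal regions made up 47.1% of the 68 and 70.1% of all shared regions. The 68 were taken from windows around genes, which hold starts of these genes and their neighbours. The 70.1% covers the whole series, so these shares are not over like sets.

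The number of shared regions per window was 13 at Epb41, 12 at Ank1 and Sptb, 9 at Slc4a1 and Rhd, 6 at Epb42 and Rhag and 1 at Kel. The median was 9, beside 7 over all protein-coding genes, and in density 5.10, beside 4.93, shared regions per 100 kb. The quartiles over all genes were 3 and 11 regions, so 3 of the 8 genes lay above them and 1 below. These 3 are the longest genes, and per 100 kb Sptb had 5.22, Epb41 5.16 and Ank1 4.35 shared regions, close to the median of 4.93.

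**Figure D3:**
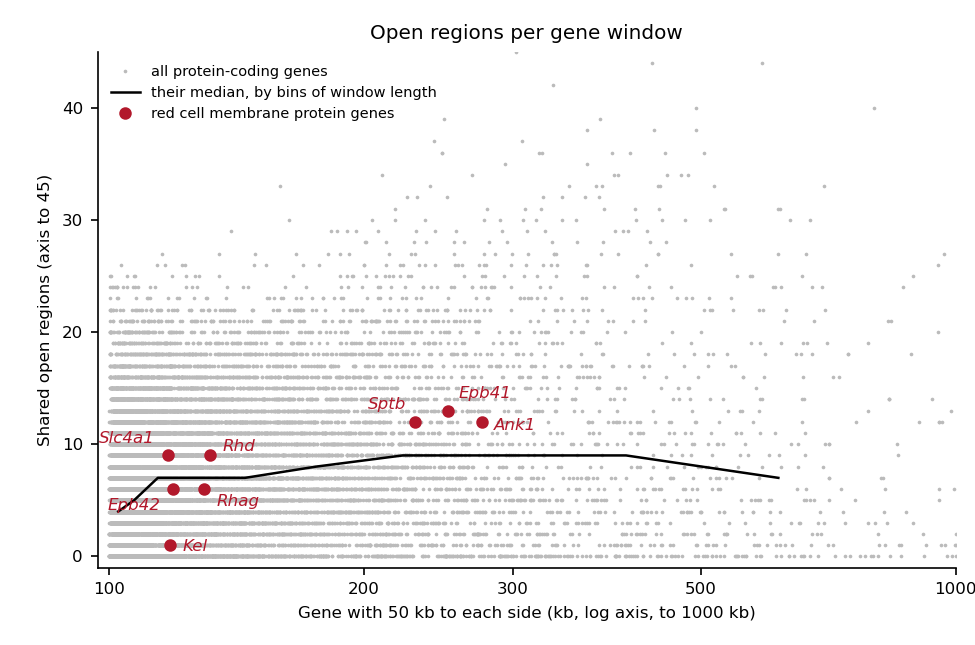
Number of shared open regions (y axis) against the length of the window, a gene with 50 kb to each side (kb, log x axis), for the 8 red cell membrane protein genes (red) and all protein-coding genes (grey, with their median by bins of length as a line). Epb41, with 13, and Sptb and Ank1, with 12 each, lie above the line and Kel, with 1, below it.

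The replicates were close at these regions. Of the 68, 65 (95.6%) had values within 1.5-fold of each other, against 96.4% of all shared regions. On the log2 scale, replicate 2 over replicate 1 had the median 0.06 at the 8 genes (SD 0.21), beside 0.05 over the series (SD 0.24). Across the 68 regions, which share 2 libraries and are not independent replicates, fold enrichment had a Pearson's r of 0.944 and a Spearman's rho of 0.915, beside 0.942 and 0.928 over the series. Found in 1 replicate only were 17 regions in replicate 1 and 10 in replicate 2, 28.4% of the regions at the 8 genes against 22.1% over the series. They had a median fold enrichment of 4.11, and 25 of the 27 were in the pooled replicated list.

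**Figure D4:**
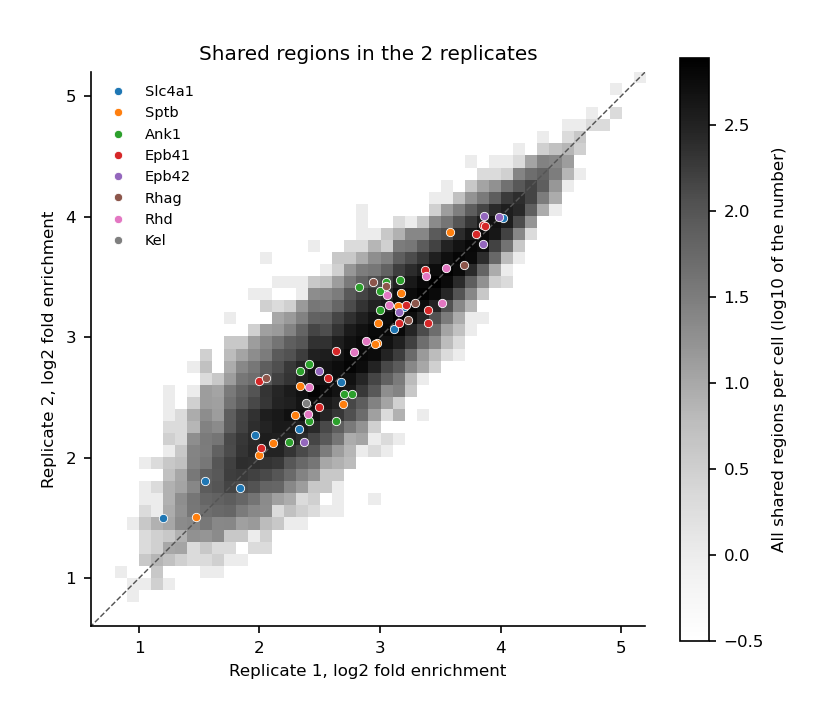
Log2 fold enrichment in replicate 1 (x axis) and replicate 2 (y axis) of the 68 shared regions of the 8 genes (points, coloured by gene) over all 69539 shared regions (grey, darker where more regions fall). The dashed line marks equal values, and 44 of the 68 points lie above it.

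The count of open promoters depended on the list, and the cause was not tested. In the lists that the authors thresholded on the irreproducible discovery rate (IDR) for each sample, 1 of 8 genes, Epb41, had a region of both samples within 500 bp of a start, against 53.0% of all genes. In the conservative IDR list of the series 4 of 8 did (Ank1, Epb41, Rhd and Kel), against 57.6%, and in the replicated list 8 of 8, against 63.2%. At the 5′ end alone the replicated list had a region at 6 of 8 genes, against 57.7%. Of all 68 regions 37 were also in the IDR lists of both samples, against 53.3% of all shared regions. The depth of the libraries is unknown, and a start without a region was not detected at that depth.

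Of the 32 distal regions, 10 held a GATA motif within 100 bp of the summit, against 25.7% of all 48720 distal shared regions. These were 4 regions in the window of Ank1, 2 each in those of Epb41 and Rhag and 1 each in those of Sptb and Epb42. Outside the named gene lay those of Sptb and Epb42 and the Rhag region at 58.3 kb. Those of Ank1 also lay outside it, apart from the intronic region shown above. The pair with an E-box part was in 2, at Ank1 and Epb41, against 1.11%. At own starts, 4 of the 9 regions (Sptb, Epb41, Epb42 and Kel) held a GATA motif. The share was 14.1% over all shared regions within 1 kb of a start of any gene, a wider class than the 9. The GATA share of the distal regions, 31.3% here, depended on the list. It was 22.6% in the conservative IDR list, 33.3% in the IDR lists of each sample and 32.8% in the replicated list. For those lists no share over all distal regions is given here. The difference from 25.7% was not tested, so no GATA excess is concluded.

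Of the other motifs of megakaryocyte and erythroid factors, the ETS core and the AP-1 and NF-E2 core were in a smaller share of these regions than of all distal regions. The ETS core (AGGAAG or CGGAAG), bound by FLI1 and related factors, was in 14 of the 32, against 54.8%, and the RUNX core (TGTGGT) in 10, against 25.6%. A KLF pattern (CCNCNCCC) was in 7, against 23.4%. The AP-1 and NF-E2 core (TGANTCA) was in 1, at Sptb, against 10.7%, and the longer NF-E2 pattern in 0, against 1.21%. A CTCF pattern was in 4, against 11.6%. All were searched on both strands. The longer NF-E2 pattern contains the core, and the GATA pair contains a GATA motif. With 32 regions, 1 region more or less moves a share by 3.13 percentage points.

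**Figure D5:**
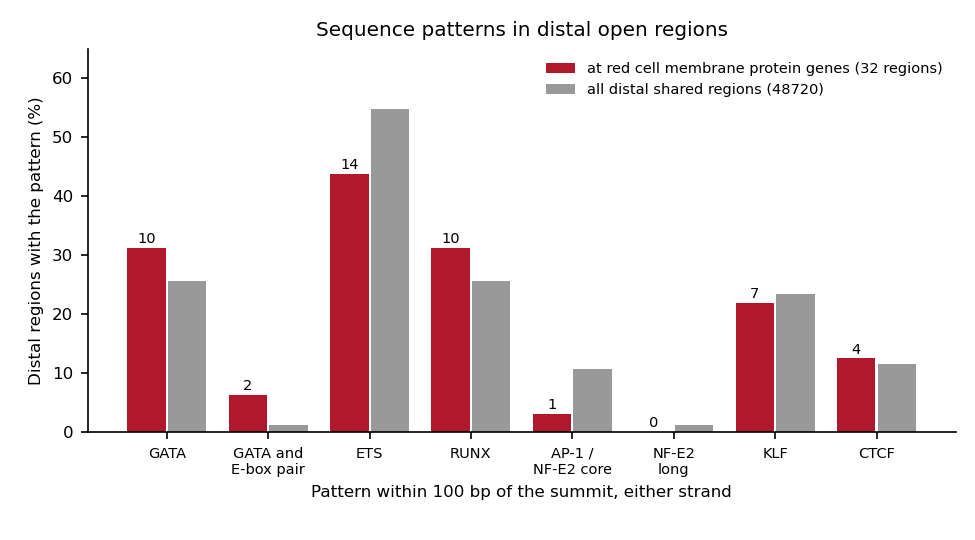
Percent of distal shared regions with each sequence pattern within 100 bp of the summit, at the 8 red cell membrane protein genes (red, 32 regions, number of regions above each bar) and over the series (grey, 48720 regions). The red bars are higher for GATA and RUNX (10 regions each), the GATA and E-box pair (2 regions) and CTCF (4 regions), and lower for ETS (14 regions), the AP-1 and NF-E2 core (1 region), the long NF-E2 pattern (0 regions) and KLF (7 regions). No difference was tested, and the height of the red GATA bar depended on the list.

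Among 38 other genes of the red cell membrane, a list chosen with earlier results of these data known, 32 had a promoter region, 84.2% against 59.8% of all genes. The highest were Bsg, a monocarboxylate transporter chaperone, with 16.5 in replicate 1 and 17.1 in replicate 2, Flot1, a lipid raft protein, with 16.7 and 16.4, and Stom, stomatin, with 15.2 and 15.0. The skeleton adaptors Add1, alpha adducin, and Dmtn, dematin, followed with 13.2 and 14.3, and 13.4 and 12.9. Many of these proteins are also made outside blood. Without a shared promoter region were Add2, Bcam, Ackr1, Cldn13, Trpc6 and Aqp1, the last with 4.29 in replicate 2 alone. The median promoter value of the 32 was 7.74, beside 6.03 at the 8 genes and 11.5 over all open genes.

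The labelled cell type was checked at marker genes, beside the 59.8% of all protein-coding genes with a promoter region. Of 9 megakaryocyte markers, 4 (44.4%) had one: Itga2b (13.9 in replicate 1 and 13.0 in replicate 2), Itgb3 (8.08 and 7.16), Pf4 (4.07 and 5.06) and Vwf (9.64 and 9.15). Gp1ba had one in replicate 1 alone (3.85) and Gp9 in replicate 2 alone (4.73), while Gp1bb, Gp5 and Gp6 had none. Of 9 erythroid markers 7 (77.8%) had one, with 5.18 to 9.98: Epor, Gata1, Hemgn and the globin genes Hba-a1, Hba-a2, Hbb-bs and Hbb-bt, whose near-identical copies make the assignment of reads uncertain. Klf1, the erythroid Krüppel-like factor, and Alas2, the erythroid enzyme of haem synthesis, had none. Of the neutrophil markers 7 of 8 (87.5%) had a promoter region, with 7.30 to 11.8, and of the monocyte and macrophage markers 5 of 8 (62.5%), with 5.64 to 14.1. The megakaryocyte share was thus below that of all genes and the neutrophil share above it. In these bulk samples a larger share of cells with open chromatin and more opening per cell cannot be told apart, and the part of other cell types in the values at the 8 genes was not tested.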

How the data were processed

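Peaks of 2 ATAC-seq samples, which form 1 group, were used. Per the labels they are on the mm10 build. The peak caller and the aligner are not given in the sources used here. The deposited lists hold, per peak, the fold enrichment over local background (a ratio), the −log10 p-value and the summit position. No file header defines these columns, so they were read from the peak format. The authors called the pseudoreplicated and IDR-thresholded lists on each sample, and the replicated and conservative lists on the pooled samples. Listed peaks had p-values up to 0.00997. No read counts were given, so depth is unknown, no interval was computed, and fold enrichments were compared as deposited, with 0 value columns left unmapped.

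On chromosomes 1 to 19 and X, overlapping peaks of each list (1 bp or more) were merged, keeping the highest fold enrichment and its summit. Regions that overlapped between the replicates were joined into shared regions. Starts and genes came from GENCODE M21, which is annotated on mm10, and sequences and motif windows (201 bases) from the RefSeq copy of the GRCm38.p6 assembly. Named were the 8 genes with their promoter region, their 3 strongest distal regions and regions of 1 replicate at their starts, the 5 highest and all unopened genes of the other membrane list, and the megakaryocyte and erythroid markers, apart from genes not reported here. The distal Ank1 region with 3 GATA motifs, the further Epb41 and pooled-list regions and the sequences were chosen after their values were seen. The members and lists were chosen with earlier results of these data known. No test was made, since there is 1 group and the genes were chosen. Python 3.11.15, pandas 2.3.3, numpy 2.4.6, matplotlib 3.10.9, pysam 0.24.0 and samtools 1.23.1 were used, and the merging, overlap and motif steps were tested on simulated data. Alternatives were the other lists, 50% reciprocal overlap, peaks of at least 4-fold, wider or narrower windows, only the 5′ end of a gene, −log10 p in place of fold, and each replicate left out.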

Additional observations from a re-analysis of the deposited data

How the results depend on the processing

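Values here are, for the 8 genes, the number with a promoter region (6 as reported), shared regions (68), distal regions (32), their median fold enrichment (8.04) and the percent of distal regions with a GATA motif (31.3). With the IDR lists of each sample they were 1 gene, 37 and 18 regions and 9.51-fold. With the replicated list they were 8 genes, 114 and 58 regions, 5.56-fold and 32.8%. The conservative list gave 4 genes, 61 and 31 regions, 9.55-fold and 22.6%. Counting only the 5′ end of each gene gave 4 genes. Peaks of at least 4-fold gave 8.80-fold. A flank of 20 kb gave 35 and 18 regions, 8.66-fold and 27.8%, and one of 100 kb gave 111 and 56 regions, 8.54-fold and 39.3%, where the counts follow from the size of the window. A motif window of 150 bp gave 46.9%, being wider. For this window and for the other lists no share over all distal regions is given here, so their GATA percents have no background. The median percentile of the 68 regions among all shared regions was 55.1 by fold enrichment and 51.8 by −log10 p-value. Leaving out a replicate gave 6 to 7 genes, 78 to 87 and 38 to 46 regions, 6.41- to 7.10-fold, 26.3% to 30.4% and percentiles of 53.3 to 54.6, where regions need be in 1 replicate only. Erythroid markers with a promoter region, 7 as reported, numbered 3 in the IDR lists and 4 at the 5′ end alone, an alternative added after seeing the data. For the other changes the cause was not tested. Under the same alternatives, promoter values of single genes moved by more than the spread between replicates in 7 of 45 cases, and counts of regions of single genes by more than 1.5 times in 22 of 72. The 45 leave out cases where a gene lost its promoter region and so had no value. Of the 6 genes, these were all but Epb41 in the IDR lists, Sptb and Epb42 in the conservative list, and Ank1 and Rhd at the 5′ end alone. No paired analysis was possible because the series holds 1 group. With 2 replicates, 1 donor record and unknown depth, a region missing from a list is not shown to be closed.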
